A study of Homo sapiens with 10 samples.

Results

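DNA replication genes are those whose products license origins, unwind the helix, copy both strands and supply the nucleotides for it. The 46 examined here were chosen by gene symbol, from what their products do, with earlier results of these data known. They comprise origin licensing factors, helicase subunits, polymerases, the sliding clamp and its loader, factors of the fork, ribonucleotide reductase and a chromatin assembly factor. All 46 had a probe set, among 17687 genes with a symbol. In 42 of them every array was above the median of its background probe sets, and the other 4 (CDT1, MCM10, POLD1 and LIG1) were at or under it on 1 or 2 arrays.

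Replication starts where the origin recognition complex, CDC6 and CDT1 load the ring of MCM proteins onto DNA, a step called licensing. CDC45 and the GINS complex turn the loaded ring into the moving helicase, primase and polymerase alpha lay down primers, and polymerases delta and epsilon extend them with the help of the clamp PCNA. Many of these genes are transcribed by E2F factors as cells pass from G1 into S phase, so their messenger RNA is used as a readout of cycling cells. Growing leukaemia lines hold high levels of most of them.

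RNA of 4 human myeloid lines was hybridised to 10 arrays, 1 per condition, with no replicate of any condition. OR21 (OR-2100), described by the series as a hypomethylating agent, was given for 96 h at 500 nM to HL60, an acute myeloid leukaemia line, and to K562, a chronic myeloid leukaemia line. MDSL and SKM1, both labelled as lines of myelodysplastic syndrome, had 100 nM for 96 h. Each line also had an untreated control array labelled with the same time, and the MDSL medium held IL-3. The remaining 2 arrays were HL60 derivatives labelled AZA resistant and OR21 resistant and given the control treatment, set against the parental HL60 control. No label says whether a derivative is a clone, how it was selected or whether any arrays came from separate cultures. Among lineage markers, the embryonic globin HBE1 and the erythroid factor GATA1 stood at 13.59 and 13.14 log2 in control K562, against 4.93 and 6.80 in control HL60. The granule enzyme MPO stood at 17.01 log2 in control HL60 and 17.08 in SKM1, against 8.62 in MDSL and 6.23 in K562. PRTN3 split the lines likewise, at 14.78 and 15.43 against 8.51 and 5.93. The other granulocytic markers did not. AZU1 stood at 14.21 log2 in control HL60, 14.66 in SKM1 and 13.83 in MDSL, against 3.69 in K562. CTSG stood at 13.78 log2 in control HL60 and 11.56 in MDSL, against 7.80 in SKM1 and 5.55 in K562.

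Values are log2 intensities as deposited, and the number of arrays limits their precision. Gene medians of the 10 arrays lay between 6.63 and 7.05 log2. Spiked hybridisation controls averaged 11.71 log2 on the array of treated HL60, against 10.85 to 11.10 on the other 9 arrays. Centring every array on its median gave all genes a median difference of -0.22 log2 in HL60, -0.17 in SKM1 and -0.14 in K562 after OR21, -0.18 in AZA resistant and -0.22 in OR21 resistant HL60. Scaling every array to its spikes gave -0.81 in HL60. As deposited, these medians lay between -0.07 and 0.00. In whole cultures a smaller share of cells in S phase and less of a transcript per cell cannot be told apart.

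With OR21, the replication genes were lower in HL60, MDSL and SKM1, while K562 had no member lower by 2-fold. At least 2-fold lower were 39 of 46 members in MDSL, where 4.88% of all genes were, 31 in SKM1 (4.47%), 22 in HL60 (11.1%) and 0 in K562 (3.86%). With spike scaling the count in HL60 was 42, against 38% of all genes. No member was at least 2-fold higher in HL60 (10.2% of all genes), MDSL (6.62%) or SKM1 (7.1%). The member median lay at -1.34 log2 in SKM1, -1.70 in MDSL, -0.998 in HL60 and -0.09 in K562, while the medians of all genes lay between -0.05 and 0.00. Lower to any extent were 45 of 46 members in MDSL (53.3% of all genes), 46 in SKM1 (51.9%), 44 in HL60 (53.2%) and 25 in K562 (50%). The K562 counts of lower and higher members, 25 and 21, became 32 and 14 with centred arrays and 23 and 23 with quantile normalization or spike scaling. MDSL gave the lowest of the 4 differences in 29 members, against 25.2% of all genes. With spike scaling, which moves HL60 down, it did so in 19 members, against 9.31%. The plot of members beside all genes shows the 3 shifted lines and K562.

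**Figure D1:**
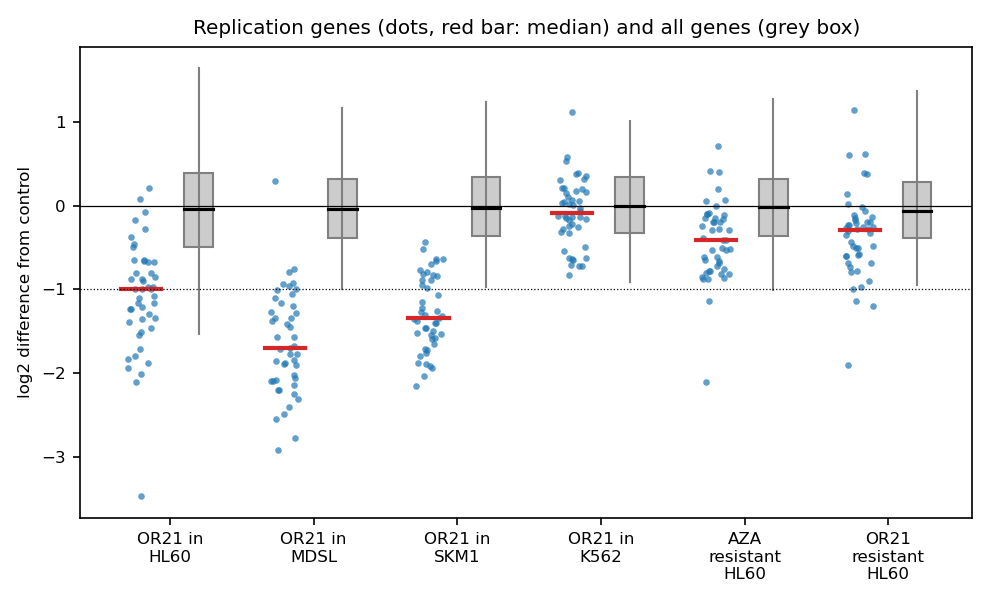
Each dot is the log2 difference (vertical axis) of 1 replication gene from the untreated control array of its line, red bars mark the median of the 46 members, grey boxes span the 25th to 75th percentile of all genes with their median in black, and grey lines the 5th to 95th. After OR21 the red bars lie at -1.34 in SKM1, -1.70 in MDSL, -0.998 in HL60 and -0.09 in K562, and in the untreated derivatives at -0.41 in the AZA resistant and -0.30 in the OR21 resistant derivative; the dotted line marks a 2-fold lower level.

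Over the 4 lines, each taken as 1 pair, the mean difference was below 0 in 46 of 46 members, against 9273 of all 17687 genes. The middle member lay at -1.03 log2, and the median of all genes at -0.02. The mean was at least 2-fold lower in 25 of 46 members and in 3.08% of all genes. Of the members, 0 passed an adjusted p of 0.05 in limma, and 0 of all genes passed as lower (0% called), while 7 of all genes (0.0396%) passed as higher. At an unadjusted p under 0.05, 36 of 46 members were lower, against 10.1% of all genes, and 0 were higher, against 8.98%. That count of lower members was 20 without SKM1 (6.67% of all genes), 21 without MDSL (8.01%), 29 without HL60 (7.08%), 42 without K562 (9.89%) and 7 when the arrays of a line were not paired (2.57%). The adjusted p of the members ran from 0.104 for POLA1 to 0.591 for RPA2. These p-values rest on the spread between lines, in which line, dose and array noise are mixed. Lower in 4 of 4 lines were 24 of 46 members, against 15.3% of all genes. Lower in HL60, MDSL and SKM1 were 43 of 46, against 24.1%. At least 2-fold lower in these 3 lines were 19 members, against 0.893% of all genes. With HL60 left out of the rule, 29 members, these 19 included, met it in MDSL and SKM1, against 1.59% of all genes. POLE, RPA2 and TIMELESS were the 3 members not lower in each of the 3 lines. Scaled to the hybridisation spikes, 3 members passed limma, FEN1, GINS1 and GINS2, among 240 genes.

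**Figure D2:**
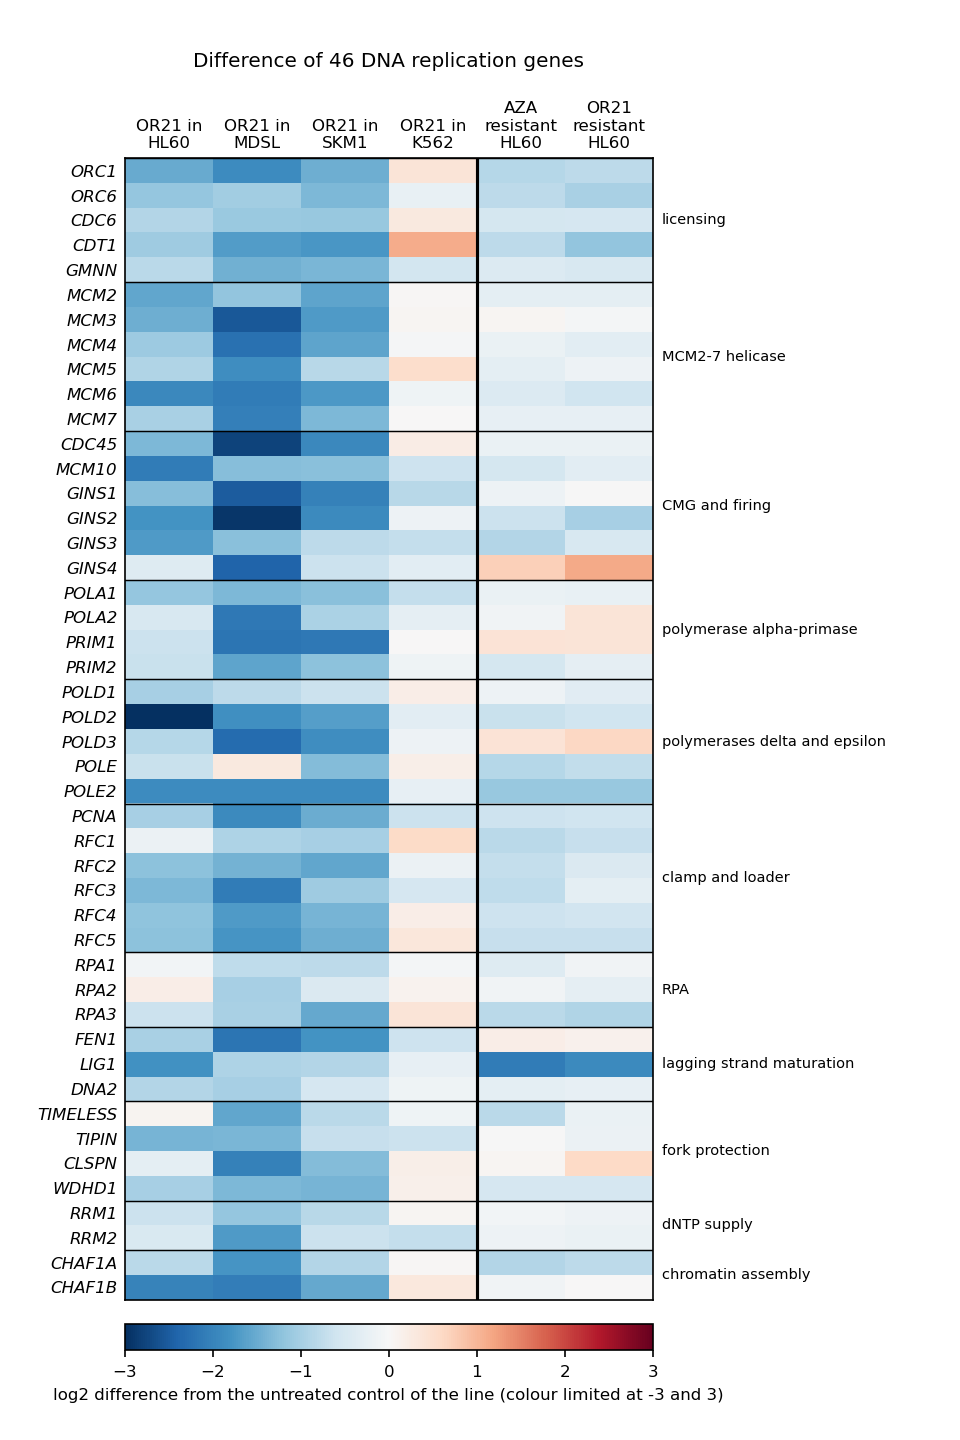
Rows are the 46 replication genes in 11 groups by role and columns the 6 comparisons, with OR21 in each line left of the thick line and the untreated resistant HL60 derivatives right of it; colour gives the log2 difference from the untreated control array, blue for lower and red for higher, limited at -3 and 3. MDSL holds the darkest blue in 29 of the 46 rows taken over the 4 lines, POLD2 in HL60 lies beyond the colour limit at -3.46, and CDT1 in K562 and GINS4 in OR21 resistant HL60 are the members higher by over 1 log2.

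Promoters are shown because the members were lower together in 3 lines. RefSeq (GRCh38.p14) promoters, from 250 bases before to 50 after the start, were at hand for 39 of the 46 members. An E2F motif, spelled here as TTTCCCGC, TTTGGCGC, TTTCGCGC or TTTGCCGC on either strand, was in the promoters of 19 of these 39 (48.7%), against 3.99% of 27305 genes. The CCAAT box, CCAAT, was in 25 (64.1%) against 39.7%, and the cell cycle homology motif TTTGAA in 1 (2.56%) against 18.2%. Over the 14250 measured genes with a promoter, the shares were 5.35% for E2F, 42.3% for the CCAAT box and 15.9% for the cell cycle homology motif. In the mean of HL60, MDSL and SKM1 the 19 members with an E2F match had a median difference of -1.44 log2 and the 20 without one -1.32. A match is a match of letters and not a site shown to be bound. The windows below show the match before the start in the members named in full that hold one: MCM6 (chr2:135876486-135876565), GINS2 (chr16:85688955-85689034), POLE (chr12:132687343-132687422) and PCNA (chr20:5126638-5126717), all on the minus strand and printed 5′ to 3′ along the gene. Capitals mark the matches, which in MCM6 are a pair that overlap.
MCM6: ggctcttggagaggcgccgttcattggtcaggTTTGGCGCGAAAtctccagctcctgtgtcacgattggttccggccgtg
GINS2: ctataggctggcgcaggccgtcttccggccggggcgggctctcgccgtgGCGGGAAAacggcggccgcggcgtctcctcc
POLE: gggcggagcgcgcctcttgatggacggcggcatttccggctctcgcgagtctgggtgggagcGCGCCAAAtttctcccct
PCNA: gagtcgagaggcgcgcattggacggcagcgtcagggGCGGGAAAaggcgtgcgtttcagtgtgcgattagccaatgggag

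Among the licensing factors, all 5 were lower in HL60, MDSL and SKM1, and in K562 2 were lower and 3 higher. ORC1 is the largest subunit of the origin recognition complex. ORC1 stood at 10.32 log2 after OR21 against 11.83 in control HL60, at 8.56 against 10.44 in MDSL, at 9.38 against 10.84 in SKM1 and at 12.78 against 12.38 in K562. Each treated array was below its control except in K562, and the mean difference was -1.11 ± 1.02 log2 (SD, n = 4 lines; adjusted p = 0.201 in limma). CDC6, which recruits the helicase to origins, had the mean nearest 0 of the 5. CDC6 stood at 11.06 log2 after OR21 against 11.94 in control HL60, at 8.10 against 9.21 in MDSL, at 9.50 against 10.65 in SKM1 and at 12.25 against 11.95 in K562. Its mean was -0.71 ± 0.68 log2 (SD, n = 4 lines; adjusted p = 0.248 in limma). CDT1, the partner of CDC6 in loading, had -1.75 log2 in SKM1 and -1.08 in HL60. In K562 it was higher by 1.11, the 1 member at least 2-fold higher there, against 5.05% of all genes. Median centring of the arrays made that difference 0.97. Treated MDSL was at background for CDT1, so the measured -1.67 there is at least 1.40 log2 lower. GMNN encodes geminin, the inhibitor of CDT1, and it was lower in 4 of 4 lines, with a mean difference of -1.04 ± 0.44. ORC6, another origin recognition subunit, was also lower in 4 of 4 lines, at -0.94 ± 0.50.

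All 6 subunits of the MCM2-7 ring were lower in HL60, MDSL and SKM1, with medians of -1.28, -2.07 and -1.58 log2. In K562 their median was 0.02 and the range ran from -0.14 for MCM6 to 0.53 for MCM5. MCM6, whose promoter window is printed above, had the lowest mean of the 6. MCM6 stood at 9.70 log2 after OR21 against 11.64 in control HL60, at 8.14 against 10.23 in MDSL, at 10.17 against 11.89 in SKM1 and at 11.27 against 11.41 in K562. The mean difference was -1.47 ± 0.90 log2 (SD, n = 4 lines; adjusted p = 0.126 in limma), and the treated array was the lower of the pair in 4 of 4 lines. MCM5 had the mean nearest 0. MCM5 stood at 11.95 log2 after OR21 against 12.84 in control HL60, at 10.68 against 12.53 in MDSL, at 11.79 against 12.61 in SKM1 and at 12.33 against 11.80 in K562. Its treated array was above the control in K562 only, and the mean difference was -0.76 ± 0.98 log2 (SD, n = 4 lines; adjusted p = 0.329 in limma). In MDSL the differences of MCM3, MCM4 and MCM7 were -2.55, -2.25 and -2.05. MCM2 alone among the 6 had its smallest difference of the 3 lines in MDSL, at -1.19, against -1.55 in HL60 and -1.59 in SKM1.

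CDC45, the GINS subunits and MCM10 act when the loaded helicase is switched on, and all 6 of these genes were lower in HL60, MDSL and SKM1. GINS2 and CDC45 were the 2 lowest members in MDSL, at -2.91 and -2.77 log2. CDC45 differed by -1.36 in HL60 and -1.94 in SKM1, and it was higher by 0.21 in K562. GINS2 stood at 7.30 log2 after OR21 against 9.09 in control HL60, at 6.14 against 9.05 in MDSL, at 9.38 against 11.29 in SKM1 and at 10.91 against 11.07 in K562. The mean of GINS2 was -1.69 ± 1.14 log2 (SD, n = 4 lines; adjusted p = 0.133 in limma). GINS4 is a further subunit of the same tetramer. GINS4 stood at 8.76 log2 after OR21 against 9.14 in control HL60, at 5.64 against 8.04 in MDSL, at 9.21 against 9.85 in SKM1 and at 9.16 against 9.47 in K562. Its difference in MDSL was -2.40, and in the other 3 lines it lay between -0.64 and -0.31. Over the 4 lines GINS4 averaged -0.93 ± 0.99 log2 (SD, n = 4 lines; adjusted p = 0.248 in limma). GINS1 was lower in 4 of 4 lines, at -1.66 ± 0.74 (adjusted p = 0.113 in limma), and in K562 its -0.83 was the lowest of all 46. MCM10 was lower in 4 of 4 lines, at -1.32 ± 0.61. It was at background on the treated arrays of HL60 and MDSL, so its difference is at least 1.49 log2 lower in HL60, and in MDSL only the 0.10 down to the background level is measured. GINS3 was lower in 4 of 4 lines too, at -1.12 ± 0.47.

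The 4 genes of the polymerase alpha-primase complex, which makes primers, were lower in HL60, MDSL and SKM1, and at least 2-fold lower in 1, 4 and 3 of them. PRIM1, the catalytic primase subunit, had the lowest value of all members in SKM1. PRIM1 stood at 11.21 log2 after OR21 against 11.86 in control HL60, at 8.64 against 10.83 in MDSL, at 9.15 against 11.29 in SKM1 and at 12.51 against 12.50 in K562. Treated cells were lower in MDSL and SKM1 by over 2 log2, while the K562 arrays differed by 0.01. The mean was -1.24 ± 1.11 log2 (SD, n = 4 lines; adjusted p = 0.189 in limma). PRIM2 is the other primase subunit. PRIM2 stood at 10.82 log2 after OR21 against 11.49 in control HL60, at 8.57 against 10.14 in MDSL, at 9.57 against 10.79 in SKM1 and at 10.75 against 10.87 in K562. It averaged -0.90 ± 0.64 log2 (SD, n = 4 lines; adjusted p = 0.169 in limma). POLA1, the catalytic subunit of polymerase alpha, had the smallest spread of all 46 members, with -1.27 in SKM1, -1.34 in MDSL, -1.16 in HL60 and -0.71 in K562. Its mean was -1.12 ± 0.28 log2 (SD, n = 4 lines; adjusted p = 0.104 in limma). POLA2, the accessory subunit, was lower in 4 of 4 lines, with a mean difference of -0.96 ± 0.83 and -2.13 in MDSL.

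Polymerase delta copies mainly the lagging strand and polymerase epsilon the leading strand. POLD2, a subunit of polymerase delta, had the lowest mean of all 46 members. POLD2 stood at 9.09 log2 after OR21 against 12.56 in control HL60, at 8.75 against 10.59 in MDSL, at 10.89 against 12.54 in SKM1 and at 12.42 against 12.75 in K562. The HL60 difference of -3.46 log2 was the lowest of any member in any line, and it lies on the treated array that stood apart in its spikes. Over the 4 lines POLD2 averaged -1.82 ± 1.29 log2 (SD, n = 4 lines; adjusted p = 0.139 in limma). Quantile normalization gave -3.35 for POLD2 in HL60. POLE encodes the catalytic subunit of polymerase epsilon, and its promoter match lies 18 bases before the start. POLE stood at 8.89 log2 after OR21 against 9.57 in control HL60, at 9.35 against 9.05 in MDSL, at 6.52 against 7.82 in SKM1 and at 9.70 against 9.52 in K562. It was the 1 member with a higher level in treated than in control MDSL, and its mean was -0.37 ± 0.75 log2 (SD, n = 4 lines; adjusted p = 0.552 in limma). POLE2, another subunit of the same enzyme, lay at -1.89 in SKM1, -1.89 in MDSL, -1.88 in HL60 and -0.25 in K562. POLD3, an accessory subunit of polymerase delta, was lower in 4 of 4 lines, at -1.30 ± 0.97. POLD1, the catalytic subunit of polymerase delta, was at background on the treated arrays of MDSL and SKM1. In HL60, where both arrays were above background, POLD1 differed by -0.999.

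**Figure D3:**
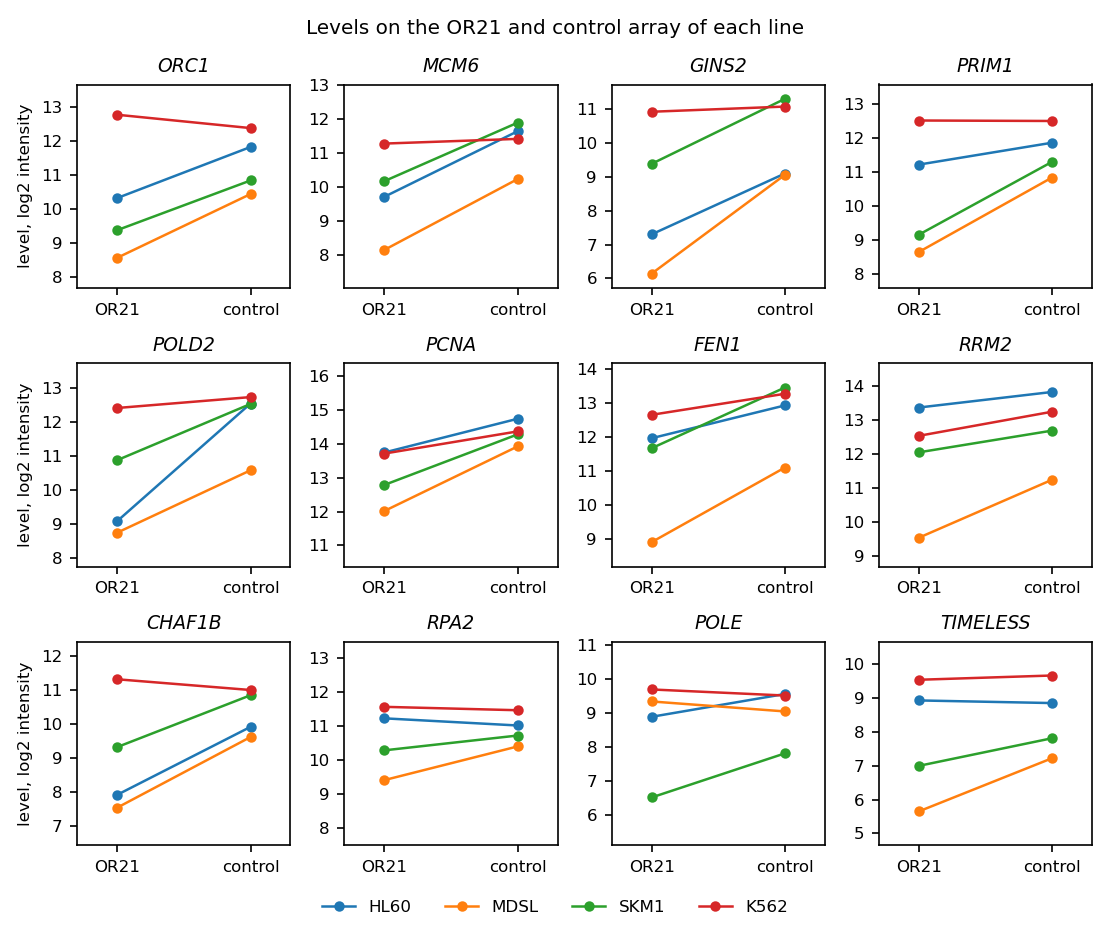
Each panel gives the log2 intensity (vertical axis, 6 log2 units in every panel) of 1 gene on the OR21 array, left, and the control array, right, of each line, joined by a line, for 12 of the genes named in full. The 3 lines HL60, MDSL and SKM1 run upward toward the control in the panels from ORC1 to CHAF1B, while K562 is flatter in each of these but RRM2; RPA2, POLE and TIMELESS do not share the pattern.

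PCNA, the ring that tethers polymerases to DNA, was lower in 4 of 4 lines. PCNA stood at 13.74 log2 after OR21 against 14.74 in control HL60, at 12.02 against 13.92 in MDSL, at 12.79 against 14.28 in SKM1 and at 13.71 against 14.36 in K562. The mean difference was -1.26 ± 0.55 log2 (SD, n = 4 lines; adjusted p = 0.117 in limma). RFC2, RFC3, RFC4 and RFC5, small subunits of the loader that opens this ring, averaged between -1.02 for RFC4 and -1.25 for RFC3. Each of these 4 was at least 2-fold lower in HL60, MDSL and SKM1. RFC1, the large subunit of the loader, differed less. RFC1 stood at 11.62 log2 after OR21 against 11.79 in control HL60, at 9.29 against 10.22 in MDSL, at 10.42 against 11.41 in SKM1 and at 11.65 against 11.06 in K562. As deposited, RFC1 had no 2-fold difference in any line, but median centring made it -1.13 in SKM1. Its mean was -0.38 ± 0.74 log2 (SD, n = 4 lines; adjusted p = 0.543 in limma). In K562 PCNA was lower by 0.65 log2, while RFC1, RFC4 and RFC5 were higher by 0.58, 0.21 and 0.35. After median centring of the arrays, RFC4 came to 0.06 there.

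The subunits of replication protein A, which coats unwound DNA in replication and in repair, had the group median nearest 0, at -0.42 log2 over the 4 lines. As deposited, at least 2-fold lower was RPA3 in SKM1 and no subunit in the other lines. With median centring RPA2 and RPA3 also passed 2-fold in MDSL, at -1.04 and -1.01. With spike scaling RPA3 did so in HL60, at -1.42. RPA3 stood at 10.17 log2 after OR21 against 10.83 in control HL60, at 7.27 against 8.24 in MDSL, at 8.99 against 10.52 in SKM1 and at 11.37 against 10.99 in K562. RPA3 averaged -0.69 ± 0.80 log2 (SD, n = 4 lines; adjusted p = 0.302 in limma). RPA2 stood at 11.23 log2 after OR21 against 11.02 in control HL60, at 9.41 against 10.40 in MDSL, at 10.29 against 10.73 in SKM1 and at 11.57 against 11.47 in K562. RPA2 was higher after OR21 in HL60 and K562 and lower in MDSL and SKM1, and its mean was -0.28 ± 0.55 log2 (SD, n = 4 lines; adjusted p = 0.591 in limma). With the HL60 arrays scaled to their spikes its difference there was -0.55, so its direction in HL60 depends on the scaling. RPA1 had its largest difference in SKM1, at -0.79.

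FEN1 removes the flaps of Okazaki fragments, LIG1 seals the nicks and DNA2 is a nuclease and helicase that also acts on flaps. All 3 were lower in 4 of 4 lines. FEN1 stood at 11.97 log2 after OR21 against 12.94 in control HL60, at 8.91 against 11.11 in MDSL, at 11.68 against 13.46 in SKM1 and at 12.66 against 13.28 in K562. FEN1 averaged -1.39 ± 0.73 log2 (SD, n = 4 lines; adjusted p = 0.122 in limma). DNA2 stood at 7.36 log2 after OR21 against 8.24 in control HL60, at 6.10 against 7.10 in MDSL, at 8.04 against 8.55 in SKM1 and at 9.29 against 9.43 in K562. The mean of DNA2 was -0.63 ± 0.39 log2 (SD, n = 4 lines; adjusted p = 0.190 in limma). LIG1 was lower by 1.83 log2 in HL60, with treated cells at 5.96 and control cells at 7.78. In MDSL and SKM1 the treated arrays were at background for LIG1 with control arrays at 5.51 and 5.60, so the distance down to background that can be measured there is 0.10 and 0.18.

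TIMELESS and TIPIN form a complex that stabilises the fork, with CLSPN as the mediator of its checkpoint and WDHD1 as a link between helicase and polymerase alpha. TIPIN stood at 8.92 log2 after OR21 against 10.31 in control HL60, at 9.16 against 10.54 in MDSL, at 10.17 against 10.87 in SKM1 and at 10.41 against 11.04 in K562. TIPIN was lower in 4 of 4 lines, at -1.02 ± 0.42 log2 (SD, n = 4 lines; adjusted p = 0.122 in limma). TIMELESS stood at 8.92 log2 after OR21 against 8.84 in control HL60, at 5.65 against 7.22 in MDSL, at 6.99 against 7.81 in SKM1 and at 9.53 against 9.66 in K562. The HL60 difference of TIMELESS was 0.08 and turned to -0.09 with arrays centred on their medians, and its mean was -0.61 ± 0.75 log2 (SD, n = 4 lines; adjusted p = 0.335 in limma). TIPIN and TIMELESS differed by -1.39 and 0.08 in HL60 and by -1.38 and -1.57 in MDSL. CLSPN differed by -2.02 in MDSL and -0.28 in HL60. WDHD1 was lower in HL60, MDSL and SKM1, by 1.00, 1.34 and 1.40 log2.

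RRM1 and RRM2, the subunits of ribonucleotide reductase that makes deoxynucleotides, were at least 2-fold lower in MDSL and, as deposited, in no other line. With spike scaling they also passed 2-fold in HL60, at -1.42 and -1.22. RRM2 stood at 13.37 log2 after OR21 against 13.83 in control HL60, at 9.53 against 11.24 in MDSL, at 12.05 against 12.69 in SKM1 and at 12.53 against 13.24 in K562. RRM2 averaged -0.88 ± 0.56 log2 (SD, n = 4 lines; adjusted p = 0.156 in limma) and was lower in 4 of 4 lines, K562 included. RRM1 stood at 14.04 log2 after OR21 against 14.69 in control HL60, at 12.25 against 13.40 in MDSL, at 13.67 against 14.51 in SKM1 and at 14.95 against 14.90 in K562. RRM1 averaged -0.65 ± 0.51 log2 (SD, n = 4 lines; adjusted p = 0.220 in limma). CHAF1A and CHAF1B are subunits of the factor that places histones on new DNA. CHAF1B stood at 7.91 log2 after OR21 against 9.91 in control HL60, at 7.53 against 9.62 in MDSL, at 9.32 against 10.85 in SKM1 and at 11.32 against 11.002 in K562. CHAF1B averaged -1.32 ± 1.12 log2 (SD, n = 4 lines; adjusted p = 0.177 in limma). CHAF1A stood at 9.36 log2 after OR21 against 10.16 in control HL60, at 7.38 against 9.15 in MDSL, at 8.58 against 9.47 in SKM1 and at 10.26 against 10.22 in K562. CHAF1A averaged -0.85 ± 0.74 log2 (SD, n = 4 lines; adjusted p = 0.207 in limma). Both were lower in HL60, MDSL and SKM1, and both were higher in K562, by 0.32 and 0.04. The value of CHAF1A in K562 turned to -0.10 with arrays centred on their medians.

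K562 was set against the other 3 lines by testing the difference between the responses, a contrast chosen with the K562 values known. The K562 difference lay above those of HL60, MDSL and SKM1 in 42 of 46 members, against 29.2% of all genes. POLE, RPA2, RRM2 and TIMELESS were the 4 exceptions. In limma 0 of 46 members passed an adjusted p of 0.05, and 0% of all genes did. At an unadjusted p under 0.05, 19 members were higher in K562 than in the other lines, against 3.37% of all genes, and 0 were lower, against 2.76%. They were 12 without SKM1 (1.83%), 14 without MDSL (2.82%) and 26 without HL60 (4.72%). CDT1 differed by 1.11 log2 in K562, against -1.500 ± 0.37 in the other 3 lines (SD, n = 3 lines). That contrast was 2.62 log2 (SE 0.46, adjusted p = 0.613 in limma). ORC1 differed by 0.39 log2 in K562, against -1.62 ± 0.23 in the other 3 lines (SD, n = 3 lines), a contrast of 2.01 log2 (SE 0.42, adjusted p = 0.734 in limma). CHAF1B differed by 0.32 log2 in K562, against -1.87 ± 0.30 in the other 3 lines (SD, n = 3 lines), a contrast of 2.19 log2 (SE 0.44, adjusted p = 0.734 in limma). The smallest contrast was that of RRM2, at 0.23 log2 (SE 0.62, adjusted p = 0.970 in limma). K562 is 1 pair of arrays, so its spread is taken to be that of the other lines. The count of 42 was 42 with centred arrays, 40 with quantile normalization and 44 with spike scaling.

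The lines with 500 nM, HL60 and K562, are also the leukaemia lines, so dose and disease cannot be told apart. Both 500 nM lines lay above both 100 nM lines, MDSL and SKM1, in 30 of 46 members, against 17.7% of all genes, and in 0 members did both lie below, against 18.7%. With spike scaling the count of 30 was 4, against 3.78% of all genes, so it rests on how treated HL60 is scaled. In limma 0 of 46 members passed an adjusted p of 0.05 for this difference (0% of all genes). At an unadjusted p under 0.05, 10 members were higher at 500 nM than at 100 nM, against 2.75% of all genes, and 0 were lower, against 2.73%. These 10 were 18 with quantile normalization (2.79%), 9 with median centring (2.26%), 13 with a pseudocount of 16 (2.79%) and 0 with spike scaling (0.718%). The median contrast of the members was 0.56 log2 with spike scaling, against 0.95 as deposited. PRIM1 had the smallest p of the members, with mean differences of -0.32 at 500 nM and -2.17 at 100 nM and a contrast of 1.86 log2 (SE 0.40, adjusted p = 0.877 in limma). For POLD3 the means were -0.50 at 500 nM and -2.09 at 100 nM. For POLD2 they were -1.89 at 500 nM and -1.75 at 100 nM, with the lowest of the 4 differences in HL60.

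The lines also differed before treatment. The MDSL control array held the lowest level of the 4 control arrays in 40 of 46 members, against 26.1% of all genes, and the K562 control array the highest in 24, against 29.9%. After OR21, the lowest of the 4 treated arrays was that of MDSL in 43 members, against 25.9% of all genes, and the highest that of K562 in 40, against 34.2%. With spike scaling these counts were 38, against 14% of all genes, and 42, against 43.3%. RRM2 stood at 11.24 log2 in control MDSL, 12.69 in SKM1, 13.24 in K562 and 13.83 in HL60. CDC45 stood at 10.03 log2 in control MDSL, 10.57 in SKM1, 11.98 in HL60, with the highest level, 14.21, in K562. With 1 array per line these levels have no error.

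The untreated HL60 derivatives were set against the same parental control array as the treated cells, so the 3 comparisons share it. At least 2-fold lower than in parental cells were 2 of 46 members in AZA resistant cells, LIG1 and POLE2, against 5.11% of all genes. In OR21 resistant cells they were 3, LIG1, POLE2 and CDT1, against 4.27% of all genes. At least 2-fold higher were 0 members in AZA resistant cells (7.04% of all genes) and 1, GINS4, in OR21 resistant cells (7.69%). As deposited, the shares of members past 2-fold, 4.35% and 6.52% lower, were near those of all genes. With median centring 6 members were at least 2-fold lower in each derivative, against 7.79% of all genes in AZA resistant and 6.5% in OR21 resistant cells. Most members were slightly lower all the same, 40 of 46 in AZA resistant (51.5% of all genes) and 39 in OR21 resistant cells (55.7%). Their median differences were -0.41 and -0.30 log2, against -0.02 and -0.07 for all genes. For OR21 resistant minus AZA resistant cells, 20 of 46 members were lower (50.4% of all genes), 0 at least 2-fold lower (0.888%) and 0 at least 2-fold higher (0.678%). That difference ran from -0.41 log2 for CDT1 to 0.61 for TIMELESS. The level in OR21-treated HL60 was below both derivatives in 37 of 46 members, against 42.6% of all genes, and with spike scaling in 45, against 82.4%.

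**Figure D4:**
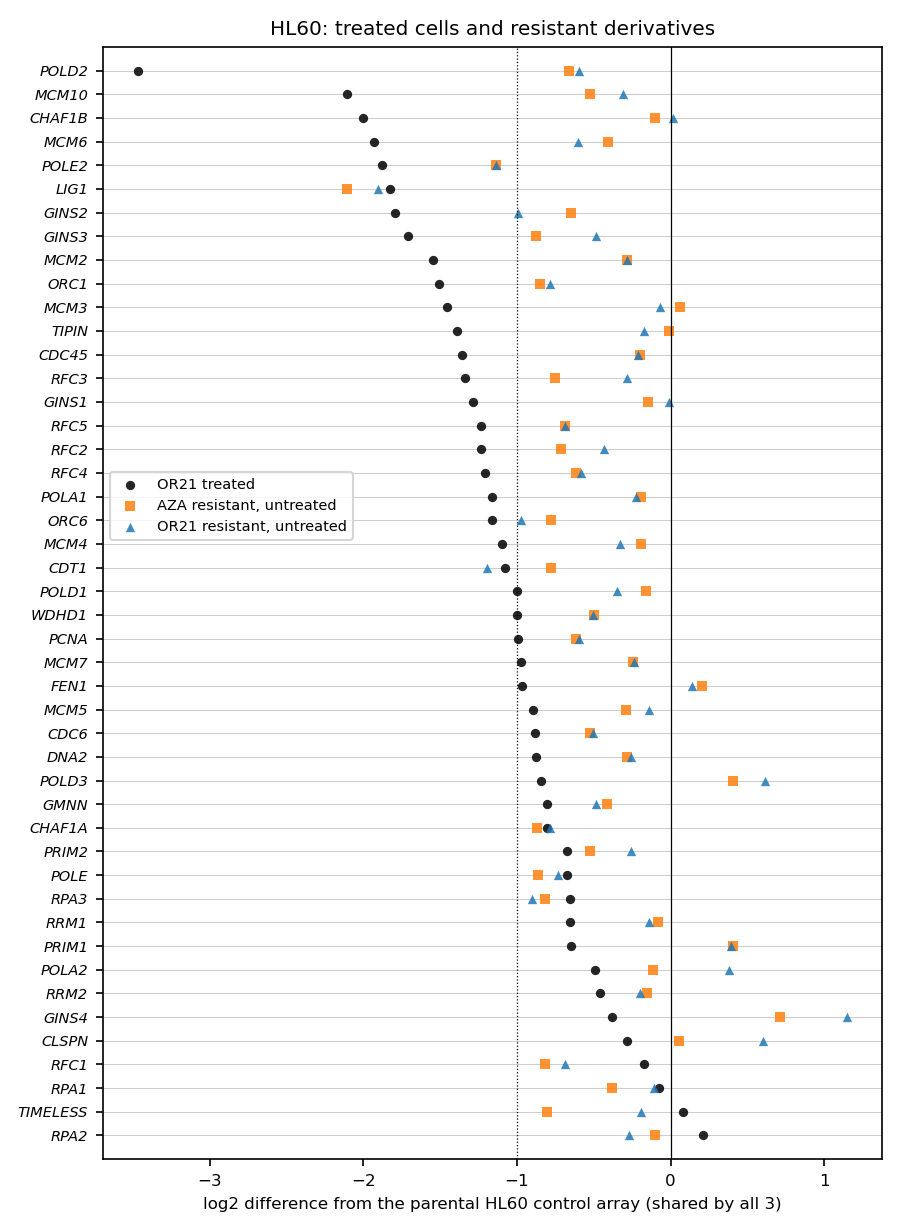
For each of the 46 replication genes, ordered by the OR21 value, the horizontal axis gives the log2 difference from the parental HL60 control array of OR21-treated cells (black circles), AZA resistant cells (orange squares) and OR21 resistant cells (blue triangles). Most squares and triangles lie between the dotted 2-fold line and 0, LIG1 lies near -2 in all 3, and GINS4 reaches 1.14 in OR21 resistant cells.

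LIG1, the ligase of lagging strand synthesis, had the lowest value of the members in both derivatives. LIG1 was at 5.68 log2 in AZA resistant and 5.88 in OR21 resistant cells, against 7.78 in parental cells, and treated cells were at 5.96. The background medians of these arrays, in the same order without the parental one, were 5.42, 5.42 and 5.43 log2. The lower levels thus lie near the floor, which limits the sizes and how far they can be told apart. The differences from the control were -2.11, -1.90 and, after OR21, -1.83. POLE2 was at 9.52 log2 in AZA resistant and 9.52 in OR21 resistant cells, against 10.65 in parental cells, with treated cells at 8.77. CDT1 was at 6.91 log2 in AZA resistant and 6.49 in OR21 resistant cells, against 7.69 in parental cells, with treated cells at 6.61. GINS4 was at 9.85 log2 in AZA resistant and 10.29 in OR21 resistant cells, against 9.14 in parental cells, and treated cells were at 8.76. GINS4 was above the control in both derivatives and below it in treated cells. With arrays centred on their medians its difference in OR21 resistant cells was 0.998.

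The 5 licensing genes and CDC45 were lower in both derivatives, as were 5 of the 6 MCM genes. MCM3 differed by 0.06 in AZA resistant and -0.07 in OR21 resistant cells. GINS3 was among the 3 lowest members in AZA resistant cells, at -0.87. ORC1 was at 10.98 log2 in AZA resistant and 11.04 in OR21 resistant cells, against 11.83 in parental cells. CDC6 stood at 11.41 log2 in AZA resistant and 11.43 in OR21 resistant cells, against 11.94 in parental cells. MCM6 was at 11.23 log2 in AZA resistant and 11.04 in OR21 resistant cells, against 11.64 in parental cells. These 3 genes lay between the treated and the control level in both derivatives. MCM5 stood at 12.55 log2 in AZA resistant and 12.70 in OR21 resistant cells, against 12.84 in parental cells. GINS2 was at 8.44 log2 in AZA resistant and 8.10 in OR21 resistant cells, against 9.09 in parental cells. GINS2 was -0.99 log2 from the control in OR21 resistant cells, next to the 2-fold line.

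Primase and polymerase genes went both ways. PRIM1 was at 12.26 log2 in AZA resistant and 12.25 in OR21 resistant cells, against 11.86 in parental cells. PRIM1, GINS4, POLD3, FEN1 and CLSPN were the 5 members higher in both derivatives. POLD3 differed by 0.41 and 0.61 and CLSPN by 0.05 and 0.60, and CLSPN was higher in AZA resistant cells by less than the shift that centring makes, which turned it to -0.11. PRIM2 stood at 10.97 log2 in AZA resistant and 11.23 in OR21 resistant cells, against 11.49 in parental cells. POLD2 was at 11.89 log2 in AZA resistant and 11.96 in OR21 resistant cells, against 12.56 in parental cells. The POLD2 difference that reached -3.46 in treated cells was -0.66 and -0.59 in the derivatives. POLE was at 8.70 log2 in AZA resistant and 8.84 in OR21 resistant cells, against 9.57 in parental cells. Clamp and loader genes were lower in 6 of 6 members in each derivative. PCNA was at 14.12 log2 in AZA resistant and 14.14 in OR21 resistant cells, against 14.74 in parental cells. RFC1 stood at 10.97 log2 in AZA resistant and 11.10 in OR21 resistant cells, against 11.79 in parental cells.

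Genes that coat, join and protect the new strands varied between members. RPA3 was at 10.01 log2 in AZA resistant and 9.93 in OR21 resistant cells, against 10.83 in parental cells. RPA2 stood at 10.92 log2 in AZA resistant and 10.75 in OR21 resistant cells, against 11.02 in parental cells. All 3 RPA subunits were lower in both derivatives, except that quantile normalization turned RPA2 to 0.01 in AZA resistant cells. FEN1 was at 13.14 log2 in AZA resistant and 13.07 in OR21 resistant cells, against 12.94 in parental cells. FEN1 was slightly higher in both, and with centred arrays it was -0.01 in OR21 resistant cells. DNA2 stood at 7.95 log2 in AZA resistant and 7.98 in OR21 resistant cells, against 8.24 in parental cells. TIPIN was at 10.30 log2 in AZA resistant and 10.13 in OR21 resistant cells, against 10.31 in parental cells. TIPIN differed by -0.01 and -0.18. TIMELESS was at 8.04 log2 in AZA resistant and 8.65 in OR21 resistant cells, against 8.84 in parental cells. TIMELESS was lower by 0.81 log2 in AZA resistant and by 0.20 in OR21 resistant cells. RRM2 was at 13.67 log2 in AZA resistant and 13.63 in OR21 resistant cells, against 13.83 in parental cells. RRM1 stood at 14.61 log2 in AZA resistant and 14.55 in OR21 resistant cells, against 14.69 in parental cells. The reductase subunits differed by -0.15 and -0.20 for RRM2 and by -0.08 and -0.14 for RRM1. CHAF1B was at 9.81 log2 in AZA resistant and 9.93 in OR21 resistant cells, against 9.91 in parental cells. CHAF1A stood at 9.29 log2 in AZA resistant and 9.37 in OR21 resistant cells, against 10.16 in parental cells. CHAF1A was lower in both derivatives, at -0.87 and -0.79 against -0.80 after OR21. CHAF1B differed by -0.10 and 0.02 in the derivatives, against -2.002 after OR21.

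Further replication genes that are not among the 46 were measured in 32 cases, and 0 of 32 passed limma's adjusted p of 0.05. At an unadjusted p under 0.05, 14 of them were lower and 2 higher, against 10.1% and 8.98% of all genes. Their median over the 4 lines was -0.52 log2, against -1.03 for the 46. The lowest were SSRP1, a subunit of the histone chaperone FACT, at -1.60 ± 0.78 log2 (SD, n = 4 lines; adjusted p = 0.117 in limma), and DSCC1, part of an alternative clamp loader, at -1.24 ± 0.66 log2 (SD, n = 4 lines; adjusted p = 0.124 in limma). POLD4, the smallest subunit of polymerase delta, was higher in 4 of 4 lines, at 1.501 ± 0.52 log2 (SD, n = 4 lines; adjusted p = 0.102 in limma). POLD4 was at 10.48 log2 after OR21 against 8.76 in control HL60, at 10.47 against 9.57 in MDSL, at 11.32 against 9.22 in SKM1 and at 9.72 against 8.44 in K562. POLD4 thus went opposite to POLD2 in each line. TOP1, a topoisomerase, was also higher in 4 of 4 lines, at 0.68 ± 0.31 log2 (SD, n = 4 lines; adjusted p = 0.155 in limma). Of 8 other genes of deoxynucleotide metabolism, 0 passed, and at an unadjusted p under 0.05 4 were lower and 2 higher, against 10.1% and 8.98% of all genes. TYMS, which makes thymidylate, stood at -1.30 ± 0.75 log2 (SD, n = 4 lines; adjusted p = 0.126 in limma) and DUT, which breaks down dUTP, at -1.22 ± 0.77 log2 (SD, n = 4 lines; adjusted p = 0.136 in limma). SAMHD1, which degrades deoxynucleotides, was higher in 4 of 4 lines at 1.199 ± 0.46 and RRM2B, the reductase subunit induced by p53, averaged 0.64 ± 0.27, with 0.74 in HL60, which spike scaling made -0.02.

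Regulators of entry into S phase were also uneven. Of 31 measured, 0 passed limma's adjusted p of 0.05, and at an unadjusted p under 0.05 11 were lower and 4 higher, against 10.1% and 8.98% of all genes. MYC, a driver of growth, averaged -2.58 ± 1.58 log2 (SD, n = 4 lines; adjusted p = 0.122 in limma) and CDK4, a kinase of G1, by -1.66 ± 1.04 log2 (SD, n = 4 lines; adjusted p = 0.126 in limma). The highest were CDKN1A, an inhibitor of cyclin-dependent kinases, at 3.21 ± 1.42 log2 (SD, n = 4 lines; adjusted p = 0.102 in limma), and CDKN1C, another such inhibitor, at 1.23 ± 0.65 log2 (SD, n = 4 lines; adjusted p = 0.124 in limma). CDKN1A was at background in control K562, and in treated K562 it stood at 5.43 log2, next to the background median of 5.41. Nearly all of its difference of 1.14 log2 in that line thus lies under background. The size there, and with it the mean, is not fully measured. E2F1, an activator of replication genes, was lower in HL60, MDSL and SKM1, by 1.69, 1.00 and 0.88 log2, and higher by 0.72 in K562. MKI67, a marker of cycling cells, had -0.67 in SKM1, -1.92 in MDSL, 0.55 in HL60 and -0.43 in K562. With spike scaling the MKI67 value in HL60 was -0.21, so its direction there depends on the scaling. In the resistant derivatives CDKN1A differed by 0.09 and -0.04 and E2F1 by -0.72 and -0.74. CDKN1A lay near the floor there, at 5.51 log2 in parental, 5.59 in AZA resistant and 5.47 in OR21 resistant cells. The background medians of these arrays were 5.41, 5.42 and 5.42, which limits what its small differences show.

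Lineage markers also differed on the treated arrays. Of all 17687 genes, 8499 were higher to any extent in SKM1, 8262 in MDSL, 8285 in HL60 and 8837 in K562, beside the marker counts below. Of 6 monocytic markers (CD14, CD68, LYZ, ITGAM, CSF1R and FCGR1A), 4 were higher in SKM1, 5 in MDSL, 6 in HL60 (4 with spike scaling) and 6 in K562. Their summed level was 18.32 log2 in treated against 17.74 in control HL60, 16.02 against 15.41 in MDSL, 17.67 against 17.41 in SKM1 and 13.17 against 12.21 in K562. Sums were taken on the linear scale, and LYZ made up most of each monocytic sum. LYZ stood at 18.14 log2 in treated and 17.71 in control HL60. At least 2-fold higher were 4 of the 6 in HL60 (10.2% of all genes), 2 in MDSL (6.62%), 2 in SKM1 (7.1%) and 0 in K562 (5.05%). FCGR1A was at background on both K562 arrays. Of 4 granulocytic markers 1 was higher in SKM1, 2 in MDSL, 0 in HL60 and 1 in K562. Of 3 erythroid markers 1 was higher in SKM1, 3 in MDSL, 3 in HL60 (1 with spike scaling) and 3 in K562. HBE1, counted among those in HL60, was at background on both HL60 arrays, at 4.96 log2 in treated and 4.93 in control cells. The granulocytic markers summed to 16.14 in treated and 17.56 in control HL60. The erythroid markers summed to 16.18 in treated and 14.40 in control K562. Markers of T and NK cells were higher in 5 of 5 in HL60 and 1 of 5 in K562, with CD3D and CD2 at background in control HL60 and CD3G on every array, and B cell markers in 2 of 3 in HL60 (0 with spike scaling), with MS4A1 at background on every array. Epithelial markers were higher in 4 of 5 in HL60, with a sum of 12.66 in treated and 9.47 in control cells, but EPCAM, KRT18 and CDH1 were at background in control HL60. Stromal markers summed to 9.14 in treated and 9.16 in control HL60, with PDGFRB at background on both arrays and COL1A1 on the control. The part of any of these markers in the replication results was not tested.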

How the data were processed

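Each array came as intensities on a linear scale, 1 value per probe set, deposited by the authors and running between 4.25 and 405294. How the authors scanned, background corrected and normalized them is not given in the sources used here. Array quartiles were similar, so no further normalization was done before taking log2, without a pseudocount. Of 24351 rows, 17709 had 1 gene symbol in the platform annotation, 0 had several, and 6642 were unnamed here. The probe set with the highest mean was kept for each of 17687 genes, 20 of which had more than 1. No column belonged to another series.

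The OR21 response was fitted with limma 3.58.1 (R 4.3.3) over 4 lines, each a block of 1 treated and 1 control array. The block rests on the label, which gives both arrays of a pair the same cell line. Benjamini-Hochberg adjustment ran over all genes, with a threshold of 0.05. K562 against the other lines, and 500 nM against 100 nM, were fitted on the 4 differences. Single comparisons have 1 array on each side, so sizes and 2-fold counts are given with no test. Fits were tested on simulated data with the spread of the real fit. Over 4 lines, 21 of 100 genes lowered by 1 log2 passed the adjusted p, and 96 of 100 lowered by 2 log2. Of the unchanged genes 8 passed. Most changes of 1 log2 would thus be missed. The simulated lowering was the same in every line, with normal noise added, so the 96 need not hold where the lines respond unlike each other. In the data MYC, at -2.58 log2, did not pass (adjusted p = 0.122 in limma). A value at or under the median of the 23 background probe sets of its array was called at background.

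The 46 members and all gene lists were chosen with earlier results of these data known. In each of 11 role groups, the members with the lowest and the highest mean were named with every array, 22 in all. In each comparison the 3 lowest and 3 highest members were named, and in each other list the 2 lowest, the 2 highest, E2F1, CDKN1A, TYMS and MKI67. Alternatives were quantile normalization, median centring, spike scaling, a pseudocount of 16, the mean of probe sets, a filter on low genes, another fold, no block and each line left out.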

Additional observations from a re-analysis of the deposited data

Results flagged for a closer look

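Among the 4 OR21 differences of each of the 46 replication genes, 1 value lay far from the other 3 in 2 genes. GINS4 was lower by far in MDSL, where its difference was -2.40 log2, against -0.38 in HL60, -0.64 in SKM1 and -0.31 in K562. POLE2 had -0.25 log2 in K562, against -1.88 in HL60, -1.89 in MDSL and -1.89 in SKM1. Each gap was judged as a share of the range of the 4 values, and this share was larger in POLE2 than in GINS4. The cut-off used is passed by chance in about 1 in 20 sets of 4 values, and 46 were examined.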

How the results depend on the processing

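Over the 4 lines, 0 members passed the adjusted p under every alternative but spike scaling, which gave 3 (GINS2 at -1.83 and FEN1 at -1.53 log2 among them), and 0 with any 1 line left out. Without the replicate block, which pairs the arrays of a line, 0 members passed. The median of the members was -1.25 to -0.88 log2 with 1 line left out, and that of K562 minus the other lines 1.14 to 1.40, with 0 members passing. The count of members past 2-fold lower became 42 in HL60 with spike scaling (38% of all genes). In AZA resistant cells it became 6 with median centring (7.79%), and in OR21 resistant cells 6 with median centring (6.5%) and 5 with spike scaling (4.99%). At 1.5-fold it was 38 in HL60 (21.3% of all genes), 8 in K562 (12.6%), 18 in AZA resistant (14.4%) and 14 in OR21 resistant cells (14.3%). The K562 median was 0.0141 log2 with spike scaling, against -0.09. Of 264 means of named members over the lines under alternatives, 0 reversed. Dropping the block or filtering low genes leaves a mean as it is, so under these it could not reverse. Sizes of the means moved with 1 line left out: RPA2 was -0.04 without MDSL, POLE -0.07 without SKM1 and MCM5 -1.19 without K562. Values of named members in 1 line did reverse, as RPA2 in HL60, at 0.21 as deposited and -0.55 with spike scaling. The cause of these differences was not tested. Scaling alternatives for the counts of members by order of the lines or arrays were chosen after seeing the data. CDT1, MCM10, POLD1 and LIG1 near background have understated sizes, and 1 array per condition limits all single-line values.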

Other observations

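SAMHD1, which degrades deoxynucleotides, was higher in both resistant derivatives than in parental HL60, by 1.63 log2 in AZA resistant and 1.97 in OR21 resistant cells, and its difference after OR21 was 1.77. RRM2B, the p53-induced reductase subunit, had -0.79 in AZA resistant and -0.84 in OR21 resistant cells, and 0.74 in HL60 after OR21, or -0.02 with spike scaling. TFDP2, a partner of E2F factors named here after its values were seen, had -2.08 in AZA resistant and -2.21 in OR21 resistant cells, and -1.83 in HL60 after OR21. These comparisons share the parental control array.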
